A study of Mus musculus with 12 samples.

Results

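The colon was compared with the ileum in control mice, gene by gene, from the mucosal RNA of both tissues. Of the 12 RNA-seq libraries of the series, the 6 that the labels place in control animals were taken, 3 of colonic mucosa and 3 of ileal mucosa, each made from the RNA of a single mouse. The study was designed around Slc39a8, which encodes the metal importer ZIP8, and its other 6 libraries came from Slc39a8-fl/fl:Villin-Cre mice, in which the Villin promoter drives Cre recombinase in the intestinal epithelium. Those KO libraries, 3 of each tissue, entered the fit only to estimate the spread between libraries of a group and are described at the end. The control mice of both tissues were untreated C57BL/6J males of 8 weeks, labelled Slc39a8-fl/fl without the Cre transgene, whereas the methods describe controls of the wider study as floxed, wild-type or Cre-carrying animals. Neither source says whether a given ileum and a given colon came from the same mouse.

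The ileum is the last stretch of the small intestine. Its villi carry absorptive enterocytes whose brush border finishes the digestion of peptides and sugars and which repackage dietary fat into chylomicrons, its distal end recovers bile acids and vitamin B12, and Paneth cells at the base of its crypts secrete antimicrobial peptides. The colon has no villi and, in the mouse, no Paneth cells: it absorbs sodium, chloride and water, oxidises the butyrate that bacteria produce and is covered by a thick mucus layer. Homeobox genes pattern the gut along the body axis in the embryo, and some stay active in the adult.

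Expected counts summed to between 18122195 and 23198023 per ileal control library and between 18763641 and 20075452 per colonic control library. Levels are given as CPM, the count in a scaled library of 1000000 counts, always in the order of replicates 1, 2 and 3, and fold changes are log2 values of colon over ileum ± standard error (SE), so that negative values are higher in the ileum. Ileum control replicate 3 stood apart on the second principal component of the 6 libraries (-86.77, against 53.93 and 57.4 for the other ileal controls), a component that held 21.7% of the variance, while the tissues separated on the first with 63.9%. That library held few smooth muscle transcripts: the 15 smooth muscle markers summed to 4124, 3901 and 192 CPM in the ileum and 3643, 5519 and 3841 CPM in the colon. It also had the highest sums of Paneth cell and crypt genes and the lowest of antimicrobial, MHC and T cell genes among the ileal controls. Among the KO libraries of the fit, ileum KO replicate 2 held 1722 counts of the colonic marker Aqp8, against 6 and 0 in the other ileal KO libraries. Without it 5718 genes were called, 5590 of them among the 5940 called with all libraries. The part of these differences in the results that follow was not tested. In a bulk library a smaller number of cells of a type and less RNA per cell cannot be told apart.

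The tissue labels were checked with 4 marker genes. Slc6a19, the neutral amino acid transporter of the brush border, read 1167, 1191 and 1237 CPM in the ileum and 2.97, 2.59 and 2.17 CPM in the colon (-8.86 ± 0.28, adjusted p = 2.46e-08). Defa5, a Paneth cell defensin, read 201, 284 and 346 CPM in the ileum and 0, 0 and 0.0941 CPM in the colon, with at most 2 counts in a colonic library (adjusted p = 1.35e-07). Both ileal markers thus stood above every colonic library. Aqp8, a water channel of colonocytes, had no count in any ileal control and 106, 20.5 and 190.5 CPM in the colon, at least 665-fold higher against a floor of 3 counts per library (adjusted p = 0.0207, but 0.128 with limma-voom). Car1, the cytosolic carbonic anhydrase 1, read 144, 13.8 and 3.40 CPM in the ileum and 27124, 18964 and 21513 CPM in the colon (8.72 ± 2.27, adjusted p = 0.0142), so that the ileal libraries differed among themselves but none came near the colonic ones.

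Of 16558 genes with enough counts to be tested, 5940 (35.9%) differed between the tissues at an adjusted p under 0.1 in edgeR's quasi-likelihood test with Benjamini-Hochberg adjustment. Higher in the colon were 2689 genes (16.2%) and higher in the ileum 3251 (19.6%). The 3 libraries of a tissue did not overlap with the 3 of the other for 6735 genes (40.7%), of which 5441 were also called. The median absolute log2 fold change of the called genes was 1.11, and the ileal side was the more extreme: 322 genes were at least 10-fold higher in the ileum against 232 in the colon, and 104 against 42 were at least 100-fold higher by the fitted value. Of 14477 protein-coding genes tested 37.5% were called, against 28.1% of lincRNAs and 17% of processed pseudogenes. With other scaling factors the balance shifted: without any scaling factor, which moves the median of all genes by 0.223, 4156 genes were called higher in the colon and 2102 in the ileum.

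**Figure D1:**
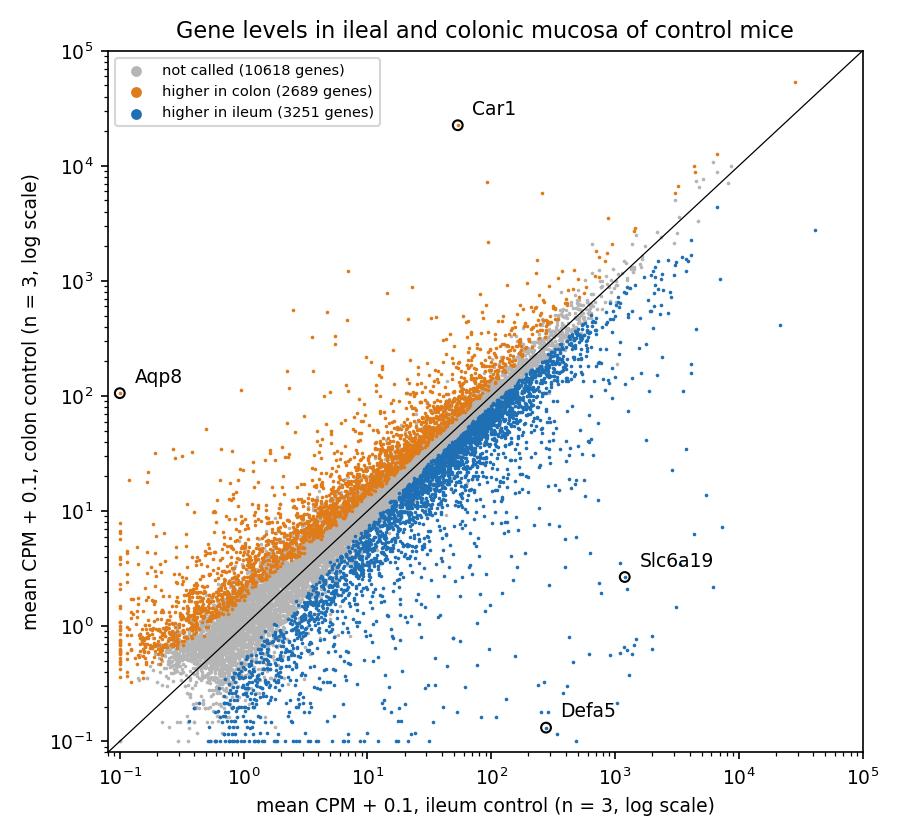
Mean CPM in the 3 ileal (horizontal axis) and 3 colonic (vertical axis) control libraries for the 16558 genes tested, both on log10 axes after adding 0.1 CPM. Orange points are the 2689 genes called higher in the colon, blue points the 3251 called higher in the ileum and grey points the rest. The 4 label markers are named, Slc6a19 and Defa5 below the diagonal and Aqp8 and Car1 above it.

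Ranked by fitted fold change, the genes at the top of the colonic side had hardly a read in the ileum, Car1 excepted. The rank of such genes depends on the prior count of the fit. Beside Aqp8, no count was found in any ileal control for Hoxa11os, Slc17a2, Cyp2c69, Hoxa11, Hoxa13, Gm43189, Gm12551 and Atp12a, whose colonic means gave bounds between at least 14.0-fold (Atp12a, the catalytic subunit of the colonic H+/K+ ATPase) and at least 49.1-fold (Hoxa11os). Slc17a2, a member of the sodium-phosphate cotransporter family, reached 10.3, 5.09 and 4.61 CPM in the colon. Lpo, lactoperoxidase, had at most 1 count in an ileal library and 17.2, 20.1 and 17.9 CPM in the colon (adjusted p = 5.51e-07). Foxd2, a forkhead transcription factor, had at most 3 ileal counts and 27.2, 36.7 and 31.8 CPM in the colon (adjusted p = 9.27e-06). Hoxa11os lies opposite to Hoxa11 and the strand setting of the counting is not stated, so reads of the pair may be shared.

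In favour of the ileum, the largest fold changes were those of Paneth cell defensins (Defa36, Defa3, Defa5, Defa33, Defa2 and the related Gm14851, AY761184 and Gm15292), together with Olfm4, Slc5a12, Apoa1 and the long non-coding RNA 3300005D01Rik. Apoa1, the main protein of high-density lipoprotein and a part of chylomicrons, read 6143, 4744 and 7526 CPM in the ileum and 1.23, 2.88 and 2.21 CPM in the colon (-11.50 ± 0.90, adjusted p = 4e-06). Slc5a12, a sodium-coupled transporter of lactate and related acids, had 34.1, 25.3 and 34.7 CPM in the ileum and no count in the colon, at least 215-fold higher. 3300005D01Rik was at least 146-fold higher in the ileum by the same floor.

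Ranked instead by the difference in mean CPM, the genes that took up more of the colonic library were mt-Co1, Car1, Cyp2c55, Gm28661, Lypd8, 1810065E05Rik, mt-Atp6, Ceacam1, Fth1, Selenbp1, Muc2 and Maoa. Selenbp1, a methanethiol oxidase, rose from 82.7, 77.3 and 122 CPM in the ileum to 2299, 2189 and 2041 CPM in the colon (4.53 ± 0.32, adjusted p = 1.48e-06). Maoa, monoamine oxidase A, differed less, at 1863, 981 and 1422 CPM in the ileum and 3037, 2422 and 2644 CPM in the colon (0.93 ± 0.23, adjusted p = 0.0122), although the libraries did not overlap. The calls for mt-Co1, which encodes a subunit of cytochrome c oxidase, and Gm28661 were lost without ileum control replicate 2 or 3 or colon control replicate 1 (adjusted p of up to 0.152 and 0.211). That for mt-Atp6, a subunit of ATP synthase, was lost without ileum control replicate 3 or colon control replicate 1 or 2 (up to 0.215), and that for Ceacam1, an adhesion protein, without ileum control replicate 3 or colon control replicate 1 or 3 (up to 0.151). Gm28661 is an annotated pseudogene, and all of its 50-base words also occur in transcripts of other genes, mt-Co2 first among them. The same holds for 99.5% of the words of mt-Atp6 and 51.1% of those of mt-Co1, so single values of these genes are uncertain.

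On the ileal side of the ranking by CPM stood Reg3b, Reg3g, Anpep, Apoa1, Fabp2, Clca4b, Fabp6, Clca4a, Sis, Apob, Enpep and Naaladl1, that is, secreted antimicrobial lectins, brush border hydrolases, lipid carriers and a pair of chloride channel accessory proteins. Clca4b read 6992, 6294 and 3154 CPM in the ileum and 8.55, 9.07 and 23.3 CPM in the colon (-8.65 ± 0.92, adjusted p = 3.9e-05). Its paralog Clca4a stood at 5451, 3641 and 4517 CPM in the ileum and 318, 189.7 and 649 CPM in the colon (-3.56 ± 0.45, adjusted p = 0.000132). Of the 50-base words of Clca4b 24.8% and of Clca4a 41% also occur in transcripts of other genes, each other included. Some reads may have been counted for the paralog. Fabp2, the intestinal fatty acid-binding protein, read 10146, 5855 and 5114 CPM in the ileum and 1348, 716 and 1057 CPM in the colon (-2.76 ± 0.30, adjusted p = 4.13e-05). All 3 were separated between the tissues in every library.

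Digestion at the brush border was the most uniform ileal feature. All 12 tested peptidases of the brush border were called higher in the ileum and none in the colon, with a median log2 fold change of -5.34 beside 0.016 over all genes tested. Anpep, aminopeptidase N, read 7777, 7771 and 6451 CPM in the ileum and 4.35, 6.24 and 10.97 CPM in the colon (-9.99 ± 0.93, adjusted p = 1.38e-05). Mme, neprilysin, read 463, 281 and 529.7 CPM in the ileum and 0.614, 0.768 and 0.753 CPM in the colon (-9.21 ± 0.51, adjusted p = 3.51e-07). The smallest differences of the group still separated the tissues, since no member's libraries overlapped. Enpep, Dpp4 and Ace, which cleave acidic residues, dipeptides after proline and angiotensin I, had log2 fold changes of -6.76 ± 0.24, -5.43 ± 0.20 and -5.25 ± 0.33, and the aminopeptidase P gene Xpnpep2 one of -6.39 ± 0.36.

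Amino acid and peptide uptake followed with 13 of 19 transporters higher in the ileum (median -3.41). After Slc6a19 came Slc7a15 (-7.73 ± 0.51, adjusted p = 1.08e-06). Slc6a20a, the proline transporter, read 155, 113 and 183 CPM in the ileum and 2.05, 2.78 and 2.40 CPM in the colon (-5.96 ± 0.30, adjusted p = 2.2e-07). Slc15a1, which encodes the proton-coupled peptide transporter PEPT1, read 512, 494 and 726 CPM in the ileum and 7.63, 11.7 and 20.995 CPM in the colon (-5.42 ± 0.45, adjusted p = 5.71e-06). The single member higher in the colon was Slc1a5, a glutamine transporter, at 46.7, 58.05 and 70.2 CPM in the ileum and 96.2, 126 and 87.5 CPM in the colon (0.82 ± 0.19, adjusted p = 0.00727).

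For sugars, 14 of 15 tested members were higher in the ileum and none in the colon (median -3.85). Treh, the brush border trehalase, read 93.3, 100.4 and 94.9 CPM in the ileum and 0.614, 0.384 and 0.612 CPM in the colon (-7.47 ± 0.40, adjusted p = 2.89e-07). Sis, sucrase-isomaltase, read 5026, 2544 and 4756 CPM in the ileum and 174, 177 and 122 CPM in the colon (-4.70 ± 0.34, adjusted p = 2.03e-06) and so was still present in the colon. G6pc, the glucose-6-phosphatase that releases free glucose, was at 6.72, 0.944 and 2.38 CPM in the ileum and without a count in the colon, at least 22.9-fold higher. Slc2a2, the basolateral glucose transporter GLUT2, rested on a single library: it read 0.732, 0.0555 and 66.5 CPM in the ileum with at most 1 count in a colonic library, and its call (adjusted p = 0.0375) was lost without ileum control replicate 3 (adjusted p = 0.404) and without any of the 3 colonic libraries (0.112 to 0.127). Lct, lactase, fell under the count filter.

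Lipid absorption gave 22 of 25 members higher in the ileum and 1 in the colon (median -4.36). Apoa4, a chylomicron apolipoprotein, read 150.1, 181 and 64.8 CPM in the ileum and 0.205, 0.144 and 0.0471 CPM in the colon (-9.92 ± 1.04, adjusted p = 3.32e-05). Npc1l1, the uptake receptor for dietary cholesterol, read 973, 699 and 644 CPM in the ileum and 1.43, 1.87 and 2.21 CPM in the colon (-8.71 ± 0.38, adjusted p = 1.18e-07). Mttp, which loads triglyceride onto apolipoprotein B, stood at 771, 831 and 643 CPM in the ileum and 2.46, 1.58 and 2.82 CPM in the colon (-8.35 ± 0.54, adjusted p = 9.46e-07). Enpp7, the alkaline sphingomyelinase, had no count in the colon and was at least 59.5-fold higher in the ileum. The exception was Scarb1, the high-density lipoprotein receptor, at 2.33, 1.61 and 1.32 CPM in the ileum and 9.11, 7.63 and 6.97 CPM in the colon (2.18 ± 0.30, adjusted p = 0.000268). Every one of these ileal genes was separated from the colon in all libraries.

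**Figure D2:**
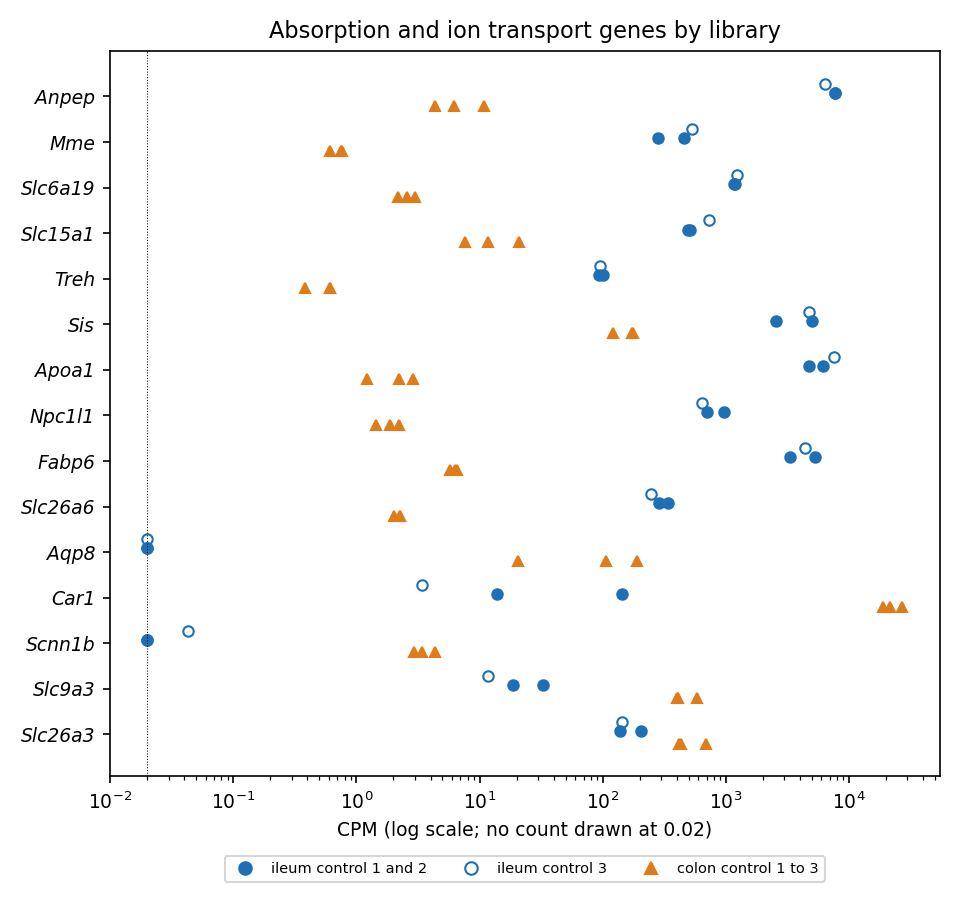
CPM of 15 genes of digestion, absorption and ion transport in each of the 6 control libraries, on a log10 axis; blue circles are ileal and orange triangles colonic libraries, open symbols mark ileum control replicate 3, and libraries without a count are drawn on the line at 0.02 CPM. The ileal and colonic symbols do not overlap for any of the 15 genes.

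Promoters of Sis, Treh and Alpi are shown as examples of ileal digestive genes. They were chosen after the values were seen, so their matches do not stand for the digestive genes as a group. A link between promoter sequence and direction was not tested. Alpi, the intestinal alkaline phosphatase, was added after its values were seen and read 515, 393 and 379.7 CPM in the ileum and 43.1, 20.7 and 41.2 CPM in the colon (-3.62 ± 0.34, adjusted p = 1.64e-05). Each run is the RefSeq window (GRCm38.p6) of 250 bases before to 50 after the start of transcription, written along the gene's strand. Capitals mark every exact match, on either strand, to the letters CAAAGTCCA for HNF4 factors, AGATAA for GATA factors, TTTATNG for CDX factors and TATAAA for the TATA box, which overlap where the capitals run on. Sis lies at chr3:72967814-72968113 on the minus strand, Treh at chr9:44672983-44673282 on the plus strand and Alpi at chr1:87101557-87101856 on the minus strand.
Sis: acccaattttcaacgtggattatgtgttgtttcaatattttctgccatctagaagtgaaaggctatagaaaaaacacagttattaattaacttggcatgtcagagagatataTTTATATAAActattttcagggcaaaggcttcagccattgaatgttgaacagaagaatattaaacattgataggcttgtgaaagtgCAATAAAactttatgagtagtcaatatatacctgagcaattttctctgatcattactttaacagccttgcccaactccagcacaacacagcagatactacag
Treh: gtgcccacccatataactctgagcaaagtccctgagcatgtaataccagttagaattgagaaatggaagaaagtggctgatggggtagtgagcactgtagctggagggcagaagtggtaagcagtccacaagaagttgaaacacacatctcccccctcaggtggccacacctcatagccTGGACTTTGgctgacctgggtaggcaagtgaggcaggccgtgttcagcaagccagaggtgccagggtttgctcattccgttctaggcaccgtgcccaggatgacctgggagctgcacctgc
Alpi: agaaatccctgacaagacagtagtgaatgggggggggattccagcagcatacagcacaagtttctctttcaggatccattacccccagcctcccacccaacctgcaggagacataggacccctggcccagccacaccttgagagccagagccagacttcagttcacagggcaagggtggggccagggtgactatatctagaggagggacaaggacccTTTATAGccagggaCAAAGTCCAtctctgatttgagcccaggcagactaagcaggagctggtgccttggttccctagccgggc

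The HNF4 letters began in Treh 71 bases before the start, on the opposite strand, and in Alpi 19 bases before it, and Sis held a CDX match 52 bases before the start. HNF4 factors are nuclear receptors and CDX factors homeobox proteins of the intestinal epithelium. Over all 27025 genes with a promoter window 0.555% held the HNF4 letters, and 0.592% of the 11832 tested genes with a window. Among genes called at least 10-fold higher in the ileum the share was 4.31% (9 of 209 with a window), and among those at least 10-fold higher in the colon 1.32% (2 of 152). The CDX letters stood in 21.1% and 15.8% of those windows against 8.71% of tested genes, and the TATA letters in 23% and 22.4% against 9.58%, so that these were frequent on both sides. The GATA letters stood in 15.3% of the ileal and 8.55% of the colonic windows, against 8.36%. These shares describe letters in a window and not binding.

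Bile acid recovery was called higher in the ileum for 6 of 9 members (median -2.34). Fgf15, the hormone that tells the liver to stop making bile acids, read 5.26, 7.89 and 5.91 CPM in the ileum and had no count in the colon, at least 43.5-fold higher. Fabp6, the cytosolic bile acid carrier of the ileum, read 3362, 5346 and 4447 CPM in the ileum and 6.55, 5.76 and 6.31 CPM in the colon (-9.46 ± 0.68, adjusted p = 1.77e-06). Slc10a2, the apical bile acid transporter ASBT, differed less, at 3282, 2197 and 1883 CPM in the ileum and 916, 809 and 795 CPM in the colon (-1.55 ± 0.23, adjusted p = 0.000472). Abcc3, a basolateral exporter of conjugated organic anions, went the other way, at 77.2, 87.5 and 40.5 CPM in the ileum and 321, 363 and 350.4 CPM in the colon (2.33 ± 0.32, adjusted p = 0.000274).

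Vitamin handling showed the same side. Higher in the ileum were 8 of 12 genes of water-soluble vitamin transport (median -1.86). Cubn and Amn, the paired receptor for vitamin B12 bound to intrinsic factor, had log2 fold changes of -4.45 ± 0.50 and -3.45 ± 0.23, and Slc52a3, a riboflavin transporter, of -3.34 ± 0.15. Slc23a2, a vitamin C transporter, was higher in the colon (1.51 ± 0.31, adjusted p = 0.00387). Retinoid genes split, with 4 of 16 higher in the colon, led by Dhrs9 (2.44 ± 0.49, adjusted p = 0.00327) and Adh1 (2.06 ± 0.24, adjusted p = 7.5e-05), and 3 in the ileum, namely Rdh7, Bco1, which cleaves beta-carotene (-4.40 ± 0.58, adjusted p = 0.000185), and Rbp2, the cellular retinol-binding protein of enterocytes (-2.83 ± 0.26, adjusted p = 1.14e-05). Of the retinoid list 43.8% were called, against 35.9% over all genes tested. Without ileum control replicate 3 the ileal retinoid calls numbered 5.

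Genes that make citrulline, which the small intestine supplies to the kidney, were higher in the ileum for 9 of 12 members (median -1.68). Cps1, carbamoyl-phosphate synthetase, read 238, 205 and 731 CPM in the ileum and 4.81, 2.40 and 2.35 CPM in the colon (-6.94 ± 0.62, adjusted p = 1.03e-05). Otc, the next enzyme, measured 239, 122 and 137 CPM in the ileum and 42.1, 22.2 and 30.6 CPM in the colon (-2.39 ± 0.28, adjusted p = 7.5e-05). Ass1, which consumes citrulline, was the exception (1.29 ± 0.30, adjusted p = 0.00743). Of 9 genes of calcium and vitamin D handling 5 fell under the count filter, Trpv6 and Calb1 among them. Of the 4 tested, 3 were higher in the colon, beside 16.2% over all genes tested. S100g, the calcium shuttle calbindin-D9k, read 18.3, 10.8 and 13.4 CPM in the ileum and 1264, 800.3 and 279.9 CPM in the colon (5.79 ± 0.78, adjusted p = 0.000216). Vdr, the vitamin D receptor, read 234, 228 and 252 CPM in the ileum and 541, 392 and 434 CPM in the colon (0.94 ± 0.15, adjusted p = 0.000729).

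The colonic counterpart was ion and water transport. Of 31 genes for sodium, chloride, potassium and bicarbonate movement 17 were higher in the colon and 4 in the ileum (median 0.93). Scnn1b, the beta subunit of the epithelial sodium channel, had at most 1 count in an ileal library and 3.38, 4.32 and 2.92 CPM in the colon (adjusted p = 0.000126). Slc9a3, the sodium-proton exchanger NHE3, read 18.6, 33.1 and 11.8 CPM in the ileum and 401, 409.8 and 580.2 CPM in the colon (4.45 ± 0.50, adjusted p = 5.86e-05). Slc26a3, the chloride-bicarbonate exchanger DRA, read 207, 139 and 143 CPM in the ileum and 433, 421 and 689 CPM in the colon (1.66 ± 0.28, adjusted p = 0.00101), whereas its relative Slc26a6 was an ileal gene at 289, 340.1 and 246 CPM in the ileum and 2.25, 2.01 and 2.26 CPM in the colon (-7.06 ± 0.27, adjusted p = 4.07e-08). Slc34a2, a phosphate transporter, and Guca2b, the hormone uroguanylin, were also ileal, with log2 fold changes of -4.70 ± 0.70 and -4.53 ± 0.55.

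Carbonic anhydrases were called higher in the colon for 6 of 11 genes (median 1.30). Summed over the family they made up 614, 582 and 282 CPM in the ileum and 28668, 20455 and 22969 CPM in the colon, most of it Car1. Car2 read 7.92, 4.22 and 1.66 CPM in the ileum and 564, 549 and 511 CPM in the colon (6.90 ± 1.10, adjusted p = 0.000739). Aquaporins split, with Aqp8 and Aqp4 higher in the colon and 3 in the ileum. Aqp4 read 19.4, 19.9 and 22.6 CPM in the ileum and 86.4, 47.1 and 182 CPM in the colon (2.35 ± 0.58, adjusted p = 0.0107). Aqp7, a glycerol channel, stood at 36.3, 21.4 and 34.7 CPM in the ileum and 0.0512, 0.144 and 0.424 CPM in the colon (-7.16 ± 0.57, adjusted p = 4.12e-06).

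Butyrate uptake, fatty acid oxidation and ketogenesis gave 13 of 24 members higher in the colon and 3 in the ileum (median 0.52). Pdk4, a pyruvate dehydrogenase kinase, read 2.80, 3.06 and 1.61 CPM in the ileum and 72.96, 18.4 and 54.6 CPM in the colon (4.30 ± 0.73, adjusted p = 0.00107). Pparg, a fatty acid-activated nuclear receptor, measured 16.3, 11.6 and 11.3 CPM in the ileum and 179, 148 and 193 CPM in the colon (3.73 ± 0.42, adjusted p = 5.98e-05). For neither gene did a colonic library reach down to an ileal one. Of the monocarboxylate transporters, Slc16a1, which encodes MCT1, was higher in the colon (1.24 ± 0.20, adjusted p = 0.000856). Slc16a3 (-3.20 ± 0.30, adjusted p = 1.57e-05) and Slc5a8 (-1.15 ± 0.34, adjusted p = 0.0253) were higher in the ileum, although Slc5a8 is known as a butyrate transporter of the colon. The libraries of Slc5a8 read 536, 644 and 217 CPM in the ileum and 235, 174 and 221 CPM in the colon and overlapped.

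Drug-metabolising enzymes were called in both directions, 26 of 58 higher in the colon and 15 in the ileum. Of the list 70.7% were called, against 35.9% over all genes tested. Cyp2c55, a P450 that oxidises arachidonic and linoleic acid, read 93.4, 9.22 and 177 CPM in the ileum and 8604, 5284 and 7850.4 CPM in the colon (6.28 ± 1.01, adjusted p = 0.000742). Sult1a1, a phenol sulfotransferase, read 3.93, 2.67 and 3.91 CPM in the ileum and 379, 285 and 310.5 CPM in the colon (6.53 ± 0.88, adjusted p = 0.000213). Ugt1a6a, a glucuronosyltransferase whose last exons are shared with the other Ugt1a genes, read 7.45, 3.72 and 4.84 CPM in the ileum and 352, 354 and 300.3 CPM in the colon (5.98 ± 0.45, adjusted p = 3.01e-06). Ugt8a, which makes galactosylceramide, had at most 3 ileal counts and 18.7, 17.1 and 17.7 CPM in the colon (adjusted p = 0.000276), and Cyp2d34 was colonic too (6.31 ± 1.09, adjusted p = 0.00124). Cyp3a11, the main drug-oxidising P450 of mouse small intestine, led the ileal side at 42.5, 8.83 and 54.2 CPM in the ileum and 0.358, 0.144 and 0.8 CPM in the colon (-6.31 ± 0.82, adjusted p = 0.000175), followed by Ugt2a3, with at most 1 colonic count, and the P450 genes Cyp4v3 and Cyp2u1, with log2 fold changes of -3.77 ± 0.25 and -3.62 ± 0.24.

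For comparison with the digestive genes, the promoter windows of Aqp8 (chr7:123462044-123462343, plus strand), Cyp2c55 (chr19:39006769-39007068, plus strand) and Cyp3a11 (chr5:145879805-145880104, minus strand) follow, with the same letters in capitals. They were chosen after their values were seen, the first 2 as colonic and the last as an ileal gene.
Aqp8: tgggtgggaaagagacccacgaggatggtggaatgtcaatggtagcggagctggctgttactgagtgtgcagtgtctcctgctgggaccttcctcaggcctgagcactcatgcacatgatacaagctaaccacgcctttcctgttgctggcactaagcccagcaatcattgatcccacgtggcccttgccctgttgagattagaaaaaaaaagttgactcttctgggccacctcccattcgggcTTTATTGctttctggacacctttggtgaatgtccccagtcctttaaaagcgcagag
Cyp2c55: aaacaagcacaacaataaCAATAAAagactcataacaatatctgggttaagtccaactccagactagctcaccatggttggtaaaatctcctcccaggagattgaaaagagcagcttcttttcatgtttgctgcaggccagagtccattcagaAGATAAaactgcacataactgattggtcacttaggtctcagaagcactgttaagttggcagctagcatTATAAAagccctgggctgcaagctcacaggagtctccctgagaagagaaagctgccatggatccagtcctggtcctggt
Cyp3a11: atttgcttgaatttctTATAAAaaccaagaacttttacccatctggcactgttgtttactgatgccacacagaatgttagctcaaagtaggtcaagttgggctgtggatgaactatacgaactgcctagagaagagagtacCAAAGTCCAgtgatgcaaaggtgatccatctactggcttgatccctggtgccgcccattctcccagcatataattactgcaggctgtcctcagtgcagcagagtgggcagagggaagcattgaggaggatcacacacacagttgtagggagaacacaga

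Aqp8 held a CDX match 6 bases before the start, and Cyp2c55 a TATA match 29 bases before it with a GATA match at 97 and a CDX match at 232 bases. Cyp3a11 held the HNF4 letters 109 bases before its start. The CDX letters thus occurred in windows of colonic genes as well as in those of Sis and Alpi.

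Hox genes, which specify position along the body axis, were largely colonic. Of 28 tested, 20 were higher in the colon and 1 in the ileum (median 2.16), and 11 fell under the count filter, Hoxb13 and Hoxd13 among them. In the Hoxa cluster, no ileal count was found for Hoxa11 or Hoxa13, which read 5.17, 4.56 and 7.01 and 3.28, 1.44 and 7.06 CPM in the colon, at least 35.1-fold and at least 24.7-fold higher. Hoxa10 had at most 3 counts in an ileal library and 7.94, 5.85 and 9.09 CPM in the colon (adjusted p = 0.000132). Hoxd11 was likewise without an ileal count and at least 12.5-fold higher, at 1.33, 3.12 and 1.51 CPM, and Hoxd10 had at most 2 ileal counts. Hoxc8 was the gene called on the ileal side, at 6.26, 5.11 and 0.467 CPM in the ileum and 0.102, 0.288 and 0.377 CPM in the colon (-3.89 ± 1.11, adjusted p = 0.0218), a call lost with limma-voom (adjusted p = 0.192).

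**Figure D3:**
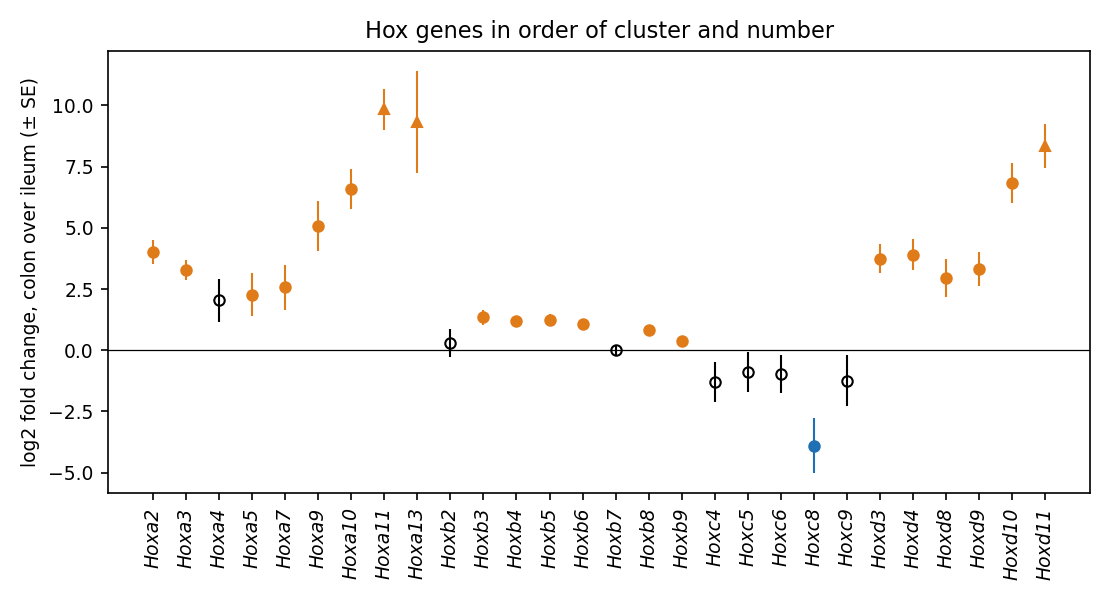
Fitted log2 fold changes of colon over ileum for the 28 tested Hox genes, ordered by cluster and by number within a cluster; bars are ± 1 SE, filled symbols passed the adjusted p of 0.1, and triangles mark the 3 genes without a count in the ileum, whose position depends on the prior count, as does that of the genes with few ileal counts. Of the 28 genes 20 lie above 0 as filled symbols and 1 below.

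Along the chromosomes (GRCm38 positions), the Hoxa cluster held a run of 9 neighbouring tested genes called higher in the colon, from Hoxa5 to Hibadh (chr6:52201754-52640389, median log2 fold change 6.59), and another of 5 that starts at Hoxa2 (chr6:52162417-52215076, median 4.3). The Hoxd cluster held a run of 11, from Hoxd11 to Mtx2 (chr2:74679557-74878431, median 3.6). A run is a stretch of neighbouring tested genes all called in the same direction. The call for Hoxa5 was lost without ileum control replicate 1 or 3 or colon control replicate 3 (adjusted p of up to 0.285), and that for Mtx2 without ileum control replicate 2 or 3 or colon control replicate 1 or 2 (up to 0.148). The longest run held 28 genes, mostly defensins, on chromosome 8 (chr8:20385782-22060305, median -11.11). Others were 9 genes around Ugt1a on chromosome 1 in the colonic direction (chr1:88095062-88220002, median 3.41) and 9 genes from Limd1 to Ccr9, with Slc6a20a, in the ileal direction (chr9:123478706-123784330, median -4.19). Members of such families share sequence, and some of their reads may have been counted for a neighbour.

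Among transcription factors tied to gut position, 6 of 31 were higher in the colon and 8 in the ileum. That was 45.2% called, against 35.9% over all genes tested. After Foxd2 stood Satb1 (1.87 ± 0.39, adjusted p = 0.00424). On the ileal side Gata5, a zinc finger factor of the gut, read 81.4, 106 and 84.8 CPM in the ileum and 1.74, 2.97 and 3.44 CPM in the colon (-5.05 ± 0.32, adjusted p = 7.49e-07). Maf measured 428, 542 and 309 CPM in the ileum and 26.5, 23.8 and 41.8 CPM in the colon (-3.79 ± 0.29, adjusted p = 2.77e-06). Hnf4g, a nuclear receptor of enterocytes, stood at 298, 171 and 203 CPM in the ileum and 20.3, 31.5 and 43.4 CPM in the colon (-2.82 ± 0.29, adjusted p = 2.65e-05). The named factors did not overlap between the tissues in any library. The balance of the list was not stable, since 9 were called in the colon and 8 in the ileum without ileum control replicate 3 or with upper-quartile scaling.

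Paneth cell genes were the sharpest cell type difference, with 20 of 22 tested members higher in the ileum and none in the colon (median -10.46, or -10.27 with genes without a colonic count set at their bound). Their summed level was 9934, 16152 and 28619.7 CPM in the ileum and 50.6, 383 and 51.6 CPM in the colon, with ileum control replicate 3 the highest. Defa36 read 254, 456 and 730.4 CPM in the ileum and had no count in the colon, at least 3290.0-fold higher. Defa20 read 958, 1799 and 3168 CPM in the ileum and 0.358, 1.44 and 0.377 CPM in the colon (-11.39 ± 0.77, adjusted p = 1.14e-06). Defa24 read 1687, 3407 and 4230.1 CPM in the ileum and 1.02, 2.16 and 0.894 CPM in the colon (-11.15 ± 0.75, adjusted p = 1.14e-06). The defensin genes are near-identical copies: between 28.1% and all of the 50-base words of the 14 tested Defa genes on the list also occur in transcripts of other genes, so that single members are uncertain while the family is not. Lyz1, the lysozyme of Paneth cells, read 1839, 1868 and 6359.9 CPM in the ileum and 3.43, 4.51 and 2.21 CPM in the colon (-9.95 ± 0.69, adjusted p = 1.41e-06). The 2 members not called were Ang4 and Mptx1, the latter at 1.20, 1 and 5.01 CPM in the ileum and 2.87, 5.13 and 2.31 CPM in the colon.

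Goblet cell genes went both ways, 8 of 22 higher in the colon and 6 in the ileum. Muc2, the gel-forming mucin, read 1262, 1410.5 and 1673 CPM in the ileum and 2769, 3626 and 2305 CPM in the colon (1.002 ± 0.20, adjusted p = 0.00356). Klk1, a kallikrein, stood at 323, 175 and 186 CPM in the ileum and 1265, 1259.7 and 993 CPM in the colon (2.36 ± 0.25, adjusted p = 3.55e-05). Tff3, the trefoil peptide packed with mucin, was ileal at 1997, 1736 and 1822 CPM in the ileum and 815, 631 and 595 CPM in the colon (-1.44 ± 0.17, adjusted p = 9.31e-05), as was Fcgbp, which crosslinks mucus, at 2435, 2744 and 3817 CPM in the ileum and 977, 1168 and 1258 CPM in the colon (-1.40 ± 0.27, adjusted p = 0.00239). Genes that build mucin and N-glycans gave 12 and 10 of 31. St6galnac6, a sialyltransferase, read 7.19, 9.39 and 3.82 CPM in the ileum and 472, 411 and 500.2 CPM in the colon (6.09 ± 0.69, adjusted p = 6.43e-05), whereas another, St3gal4, read 1939.7, 2114 and 1334 CPM in the ileum and 163, 355 and 335 CPM in the colon (-2.66 ± 0.32, adjusted p = 9.9e-05).

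Crypt stem cell and Wnt target genes gave 3 of 21 higher in the colon and 6 in the ileum. Called were 42.9% of the list, against 35.9% over all genes tested. Olfm4, which marks crypt base cells of the small intestine, had 172, 105 and 751 CPM in the ileum and a single count in the colon (adjusted p = 2.42e-05), and Axin2 read 33.4, 57.05 and 58.9 CPM in the ileum and 5.17, 9.36 and 7.30 CPM in the colon (-2.77 ± 0.28, adjusted p = 2.48e-05). Prom1, which encodes CD133, was colonic at 90.5, 69.8 and 91.5 CPM in the ileum and 504, 525 and 568 CPM in the colon (2.66 ± 0.24, adjusted p = 1.04e-05). Lgr5, the receptor that defines these cells, read 6.39, 3.44 and 20.5 CPM in the ileum and 2.66, 4.03 and 2.26 CPM in the colon (-1.76 ± 0.62, adjusted p = 0.0544), and its call was lost without ileum control replicate 3 (adjusted p = 0.316), colon control replicate 1 (0.141) or colon control replicate 3 (0.157). Without ileum control replicate 3 the list gave 5 in the colon and 4 in the ileum.

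Cell cycle genes were nearly uniform: 22 of 23 were higher in the ileum and none in the colon (median -1.41). Mcm3, a subunit of the replicative helicase, read 9.92, 18.1 and 37.01 CPM in the ileum and 3.53, 4.56 and 3.34 CPM in the colon (-2.51 ± 0.44, adjusted p = 0.00141). Top2a, topoisomerase II alpha, measured 81.7, 74.7 and 216 CPM in the ileum and 31.5, 34.1 and 30.1 CPM in the colon (-1.96 ± 0.39, adjusted p = 0.00292). Ileum control replicate 3 was the highest library for both, yet the other ileal libraries also lay above the colonic ones. Without that library 16 members were called.

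Enteroendocrine genes went both ways, 6 of 21 higher in the colon and 5 in the ileum. Tph1, the enzyme of gut serotonin synthesis, read 6.26, 2.33 and 14.9 CPM in the ileum and 60.1, 48.8 and 39.2 CPM in the colon (2.64 ± 0.59, adjusted p = 0.0063). Chga, a granule protein, read 24.4, 21.9 and 59.3 CPM in the ileum and 187, 182 and 134 CPM in the colon (2.25 ± 0.42, adjusted p = 0.00217). Insl5, a hormone of colonic L cells, measured 1.20, 1.28 and 0.51 CPM in the ileum and 6.25, 4.61 and 2.35 CPM in the colon (2.16 ± 0.44, adjusted p = 0.0036). Ileal were Gip, with no colonic count and at least 6.91-fold higher, Ghrl (ghrelin) (-2.91 ± 0.54, adjusted p = 0.00209) and Gcg, which gives GLP-1 (-1.13 ± 0.32, adjusted p = 0.0228). Of 17 tuft cell genes only Hpgds, a prostaglandin D synthase, was called, higher in the colon (0.98 ± 0.23, adjusted p = 0.00787). That count was 2 without ileum control replicate 3.

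**Figure D4:**
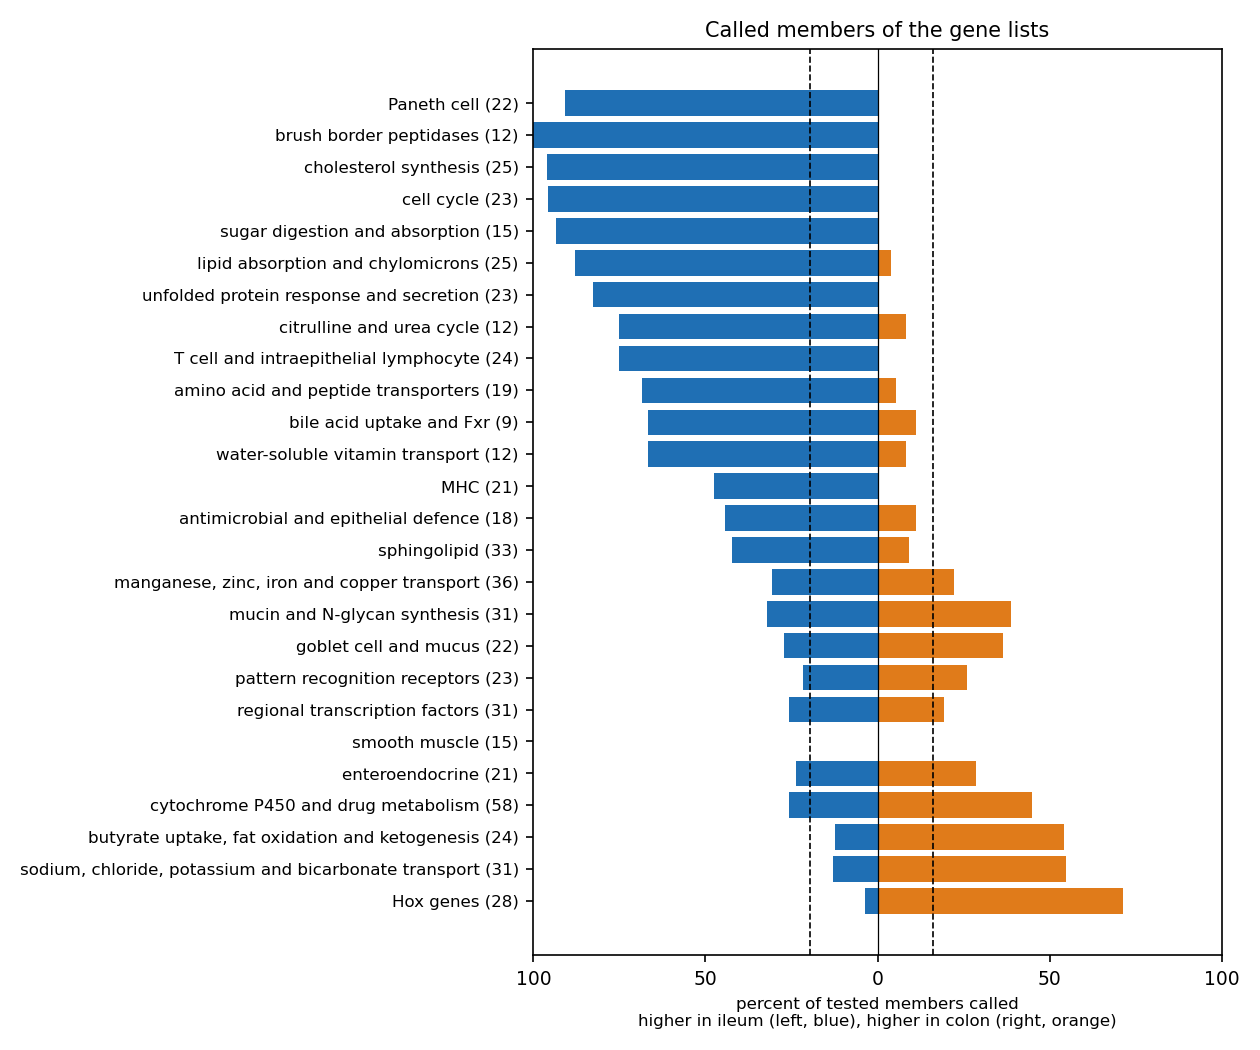
Share of the tested members of 26 gene lists called higher in the colon (orange, to the right) or in the ileum (blue, to the left), in percent, with the number tested beside each name. Dashed lines mark the shares over all genes tested, 16.2% and 19.6%. The Paneth cell, peptidase, sugar, cholesterol synthesis and cell cycle lists are nearly all ileal, and the Hox genes have the longest bar on the colonic side among lists of at least 20 tested genes.

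Secreted defence genes were ileal for 8 of 18 members and colonic for 2. Reg3b and Reg3g, lectins that hold bacteria off the epithelium, read 54006, 65061 and 4467 CPM in the ileum and 3485, 3429 and 1408 CPM in the colon (-3.89 ± 0.97, adjusted p = 0.0112) and 25815, 36506 and 1742 CPM in the ileum and 662, 340.3 and 229 CPM in the colon (-5.70 ± 1.17, adjusted p = 0.00369). Ileum control replicate 3 held far less of both than the other ileal libraries. Nos2, the inducible nitric oxide synthase, read 298, 661 and 101 CPM in the ileum and 11.1, 2.16 and 8.57 CPM in the colon (-5.60 ± 0.97, adjusted p = 0.0013). Wfdc2, a secreted protease inhibitor, led the colonic side at 0.0666, 0.889 and 1.19 CPM in the ileum and 15.8, 12.6 and 13.8 CPM in the colon (4.22 ± 0.54, adjusted p = 0.000149). Lypd8, which binds flagellated bacteria, stood at 6419, 4236 and 2421 CPM in the ileum and 11845, 7869.8 and 10166 CPM in the colon (1.19 ± 0.37, adjusted p = 0.0319). Without both ileal libraries of few muscle transcripts (ileum control replicate 3 and ileum KO replicate 1) 16 members were called.

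Receptors for microbial products went both ways, with 47.8% called against 35.9% over all genes tested. Higher in the colon were 6 of 23: Tlr2 (3.67 ± 0.38, adjusted p = 2.87e-05), the flagellin receptor Tlr5 (3.18 ± 0.55, adjusted p = 0.00117), the lipopolysaccharide receptor Tlr4 (2.82 ± 0.47, adjusted p = 0.000916), Tlr1, Nod2 and Aim2. Higher in the ileum were 5, among them the flagellin-sensing inflammasome parts Naip5 (-1.83 ± 0.16, adjusted p = 8.2e-06), Naip6 (-1.63 ± 0.21, adjusted p = 0.000177) and Nlrc4 (-1.13 ± 0.12, adjusted p = 4.76e-05). Tlr2 read 5.39, 5.83 and 2.29 CPM in the ileum and 57.5, 63.2 and 50.1 CPM in the colon, and Naip5 313, 302 and 214 CPM in the ileum and 83.4, 68.5 and 81.3 CPM in the colon. Among gasdermins, 3 of 6 were called in the colon and 2 in the ileum. Gsdmc2 was colonic (1.88 ± 0.38, adjusted p = 0.00365). Gsdme was ileal, at 347, 219 and 313 CPM in the ileum and 31.03, 28.9 and 28.95 CPM in the colon (-3.31 ± 0.18, adjusted p = 3.23e-07). Of the list, 1 member was called in the colon without ileum control replicate 2 or 3 or colon control replicate 1 or 2.

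Of T cell and intraepithelial lymphocyte genes 18 of 24 were higher in the ileum and none in the colon (median -1.95), but 9, 11 and 10 were called without ileum control replicate 2, colon control replicate 1 and colon control replicate 2. Trac, the constant part of the T cell receptor alpha chain, read 2.66, 3.22 and 1.74 CPM in the ileum and 0.205, 0.288 and 0.565 CPM in the colon (-2.82 ± 0.68, adjusted p = 0.00942). Gzmb, a granzyme, read 61.6, 96.99 and 9.60 CPM in the ileum and 10.96, 3.55 and 8.38 CPM in the colon (-2.88 ± 0.80, adjusted p = 0.0191), with ileum control replicate 3 inside the colonic range. Ccr9, the homing receptor of small intestinal lymphocytes, read 6.66, 4.72 and 3.10 CPM in the ileum and 0.819, 0.672 and 0.894 CPM in the colon (-2.59 ± 0.60, adjusted p = 0.00755). Its ligand Ccl25, made by the epithelium, read 1062, 633 and 483 CPM in the ileum and 13.1, 11.03 and 12.9 CPM in the colon (-5.88 ± 0.35, adjusted p = 5.27e-07). Of 22 chemokine genes tested 45.5% were called, against 35.9% over all genes tested, and they gave no stable balance. With all libraries 7 were higher in the ileum and 3 in the colon, against 2 and 4 without ileum control replicate 2. The numbers were 2 and 3 without colon control replicate 3, and 4 in all without colon control replicate 2. Btnl2, a butyrophilin-like protein, was ileal as well (-2.12 ± 0.25, adjusted p = 8.78e-05), as were 3 of 5 genes of its family.

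MHC genes were higher in the ileum for 10 of 21 members (median -1.17). Cd74, the invariant chain of MHC class II, read 794, 953 and 115 CPM in the ileum and 45.3, 33.7 and 40.8 CPM in the colon (-3.96 ± 1.09, adjusted p = 0.0186). H2-Aa stood at 910.3, 648 and 71.6 CPM in the ileum and 32.97, 32.5 and 27.9 CPM in the colon (-4.13 ± 1.08, adjusted p = 0.0149). Ileum control replicate 3 again lay nearest to the colon. Plasma cell and IgA genes gave 8 of 18 in the ileum, among them Mzb1 (-2.83 ± 0.59, adjusted p = 0.00406). Igha, the IgA heavy chain, was ileal as well, at 288, 1379 and 266 CPM in the ileum and 86.8, 129 and 83.8 CPM in the colon (-2.69 ± 0.78, adjusted p = 0.0245). Their number was 5 without ileum control replicate 2, where the Igha call was lost (adjusted p = 0.13). Interferon-stimulated genes were called for 31.6% of members, below the 35.9% over all genes tested, with 5 of 19 in the colon and 1 in the ileum. Colon control replicate 2 stood below the other colonic libraries. A count of 1 member was called when colon control replicate 1 or 3 was left out, and 2 without ileum control replicate 1. Ddx60, an antiviral helicase, read 108, 73.9 and 111 CPM in the ileum and 229, 154 and 370.1 CPM in the colon (1.36 ± 0.37, adjusted p = 0.0167).

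B cell genes were called for 3 of 15 members, all in the ileum, 20% beside the 19.6% over all genes tested in that direction. Their sum was highest in ileum control replicate 3, at 19.8, 29.6 and 110.4 CPM in the ileum and 13.8, 25.2 and 22.3 CPM in the colon. The number called was 7 without ileum control replicate 1, 5 without replicate 2 and 0 without replicate 3 of the ileum or without colon control replicate 1 or 3. Macrophage and dendritic cell genes gave 1 in the colon and 3 in the ileum of 20, or 20% called against 35.9% over all genes tested. Itgam, the integrin CD11b, read 19.1, 20.8 and 15.3 CPM in the ileum and 3.28, 1.97 and 2.97 CPM in the colon (-2.75 ± 0.29, adjusted p = 4.11e-05). Their number was 7 without ileum control replicate 3 and 1 or 2 without ileum control replicate 2 or any of the colonic libraries. Of 8 mast cell genes 6 fell under the count filter. The 2 tested, the mucosal mast cell proteases Mcpt1 and Mcpt2, were ileal, Mcpt1 with no colonic count and at least 7.55-fold higher. Without a count in colonic controls, Mcpt1 could not have passed the filter through them. The pair therefore does not describe mast cell genes as a group.

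Genes of the muscle wall and stroma gave few calls. None of 15 smooth muscle genes passed the test at a median log2 fold change of 0.58, and their summed level in the colon was 1.58 times that of the ileum with all libraries and 1.08 times without ileum control replicate 3. Without both ileal libraries of few muscle transcripts 6 were called, 3 in each direction. Among 20 fibroblast and collagen genes Col6a4 alone was called, in the ileum (-1.37 ± 0.42, adjusted p = 0.0292), and not without ileum control replicate 2 (adjusted p = 0.139) or colon control replicate 1 (0.105), while 2 of the list were called without ileum control replicate 1 or 3. Their summed level was 951, 645 and 143 CPM in the ileum and 839, 1098 and 979 CPM in the colon, where replicate 3 of the ileum was again the lowest. Of 16 genes of enteric neurons, glia and pacemaker cells 3 were higher in the colon, 18.8% beside the 16.2% over all genes tested. They were Nos1, Snap25 and Kit, with no count of Nos1 in ileum control replicate 3. The Nos1 and Snap25 calls were lost without colon control replicate 3 (adjusted p = 0.185 and 0.147). Without ileum control replicate 2 the list gave 5 calls. Endothelial genes gave 3 of 15 in the colon, 20% beside the 16.2% over all genes tested. Flt4, a receptor of lymphatic vessels, led them (1.71 ± 0.43, adjusted p = 0.0113), and 5 endothelial genes were called in all without ileum control replicate 1. Stromal Wnt and BMP signals included Wif1, a secreted Wnt inhibitor, in the colon at 0.0666, 0.111 and 0.34 CPM in the ileum and 3.12, 2.25 and 2.92 CPM in the colon (3.86 ± 0.56, adjusted p = 0.000365), and Wnt3, a Paneth cell Wnt ligand without a colonic count, at least 17.4-fold higher in the ileum.

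**Figure D5:**
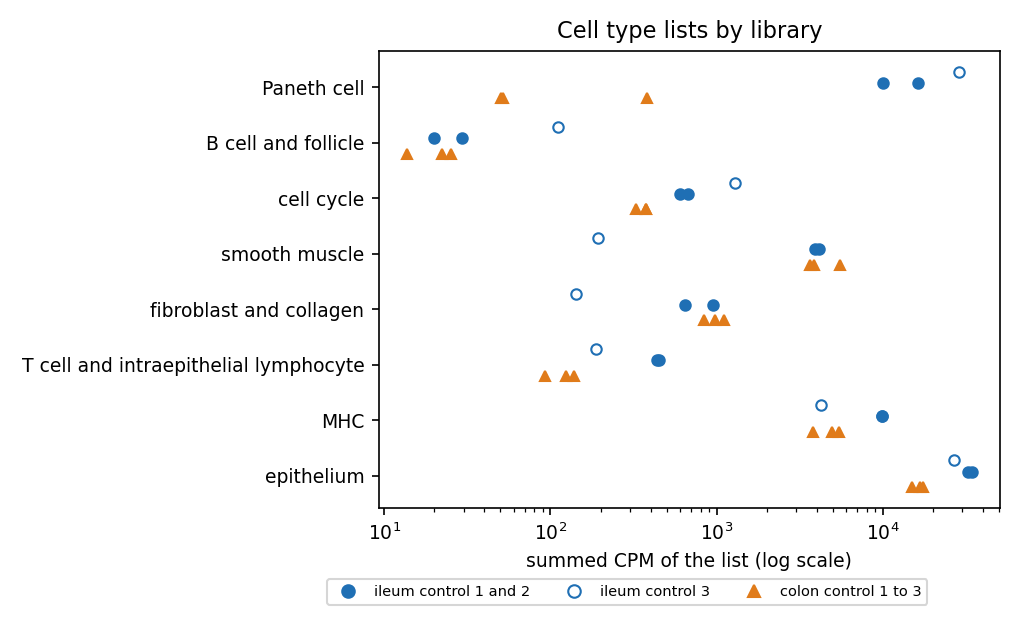
Summed CPM of 8 marker lists in each of the 6 control libraries, on a log10 axis; blue circles are ileal and orange triangles colonic libraries, with ileum control replicate 3 drawn open. That library is the lowest ileal one for smooth muscle, fibroblast, T cell and MHC genes and the highest for Paneth cell, B cell and cell cycle genes, and it lies among or below the colonic libraries for smooth muscle, fibroblasts and MHC.

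Epithelial genes shared by both tissues were not level either. Of 12 pan-epithelial markers 10 were higher in the ileum and none in the colon (median -1.03). Vil1, the microvillus protein villin, read 2844, 3055 and 2553 CPM in the ileum and 779.6, 590.5 and 806 CPM in the colon (-1.96 ± 0.17, adjusted p = 8.65e-06). Epcam, a surface marker of epithelium, read 3661, 3005 and 2679 CPM in the ileum and 1445, 1328 and 1586 CPM in the colon (-1.10 ± 0.16, adjusted p = 0.000453). Tight junction genes gave 8 of 19 in the ileum and 1 in the colon. Cldn2, which forms a pore for cations, read 177, 149.8 and 362 CPM in the ileum and 75.3, 51.3 and 36.4 CPM in the colon (-2.08 ± 0.34, adjusted p = 0.000865). Cldn15, another such pore, stood at 153, 172 and 253 CPM in the ileum and 65.4, 79.4 and 61.9 CPM in the colon (-1.48 ± 0.24, adjusted p = 0.00079). The colonic gene was Cldn5, a claudin also of endothelium (1.45 ± 0.43, adjusted p = 0.0258).

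Metal transport, the subject of the study, gave 8 of 36 genes higher in the colon and 11 in the ileum. Without scaling factors the numbers were 12 and 9. Slc39a8 itself read 8.39, 5.22 and 6.59 CPM in the ileum and 20.8, 20.5 and 20.1 CPM in the colon (1.60 ± 0.26, adjusted p = 0.000707), and no ileal library reached a colonic one. Slc30a10, an exporter of manganese, read 41.6, 39.5 and 48.95 CPM in the ileum and 297, 227 and 174 CPM in the colon (2.42 ± 0.31, adjusted p = 0.000149). Slc39a14, a manganese and iron importer, was not called, at 80.5, 72.7 and 91.995 CPM in the ileum and 69.2, 64.2 and 46.4 CPM in the colon (adjusted p = 0.136). Slc40a1, the iron exporter ferroportin, read 150.01, 175 and 48.9 CPM in the ileum and 513, 545 and 439 CPM in the colon (2.002 ± 0.44, adjusted p = 0.00549). Fth1, ferritin heavy chain, measured 873, 981 and 761 CPM in the ileum and 4005, 3423 and 3105 CPM in the colon (2.01 ± 0.17, adjusted p = 8.2e-06).

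On the ileal side of metal transport stood Slc30a2, a zinc transporter of secretory vesicles, at 39.8, 46.9 and 60.1 CPM in the ileum and 0.512, 0.768 and 0.8 CPM in the colon (-6.12 ± 0.29, adjusted p = 1.64e-07), followed by the copper ATPases Atp7b (-3.34 ± 0.77, adjusted p = 0.00757) and Atp7a (-1.44 ± 0.23, adjusted p = 0.000729) and the zinc importer Slc39a5 (-1.39 ± 0.15, adjusted p = 3.46e-05). Heph, the ferroxidase that works with ferroportin, was ileal too (-1.26 ± 0.15, adjusted p = 0.000111).

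Of 33 sphingolipid genes 14 were higher in the ileum and 3 in the colon. Acer1, the alkaline ceramidase that the study followed, was among the colonic ones, at 15.2, 10.8 and 18.1 CPM in the ileum and 58.9, 52.6 and 63.5 CPM in the colon (1.99 ± 0.25, adjusted p = 0.00013). Acer3 was also colonic (0.71 ± 0.17, adjusted p = 0.00872), while Acer2 read 2.99, 4.44 and 5.99 CPM in the ileum and 5.12, 5.28 and 4.28 CPM in the colon (adjusted p = 0.764). Asah2, the neutral ceramidase of the brush border, read 97.03, 124 and 39.3 CPM in the ileum and 6.86, 10.9 and 9.32 CPM in the colon (-3.26 ± 0.41, adjusted p = 0.000141). Smpdl3b, a membrane-bound phosphodiesterase, read 83.99, 105 and 19.7 CPM in the ileum and 2.82, 1.54 and 3.81 CPM in the colon (-4.67 ± 0.68, adjusted p = 0.000375).

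Cholesterol synthesis was close to uniform, 24 of 25 genes higher in the ileum and none in the colon (median -1.40). Sqle, squalene epoxidase, stood at 308, 317 and 245 CPM in the ileum and 58.2, 61.5 and 71.8 CPM in the colon (-2.18 ± 0.22, adjusted p = 2.32e-05). The unfolded protein response and secretory chaperones gave 19 of 23 in the same direction (median -1.16). Trib3, a pseudokinase induced by stress, read 8.59, 10.2 and 8.88 CPM in the ileum and 0.512, 0.288 and 0.424 CPM in the colon (-4.48 ± 0.53, adjusted p = 8.78e-05). Hspa5, the chaperone BiP, measured 856, 845 and 845 CPM in the ileum and 274, 254 and 239 CPM in the colon (-1.73 ± 0.14, adjusted p = 4.68e-06). For both lists every called member was ileal.

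Nuclear-encoded subunits of oxidative phosphorylation differed little: 10 of 74 were higher in the colon and 2 in the ileum, 16.2% called against 35.9% over all genes. Without any scaling factor 45 were called and with upper-quartile scaling 22, and without ileum control replicate 2 or colon control replicate 1 it was 27 or 7. Of 15 mitochondrially encoded genes 3 were higher in the colon, 10 without ileum control replicate 1 and 1 without ileum control replicate 3 or colon control replicate 1. Ndufa1, a complex I subunit, had the largest difference among the called nuclear-encoded subunits (1.01 ± 0.28, adjusted p = 0.019). Cytosolic ribosomal proteins gave 1 of 79 in the colon and 19 in the ileum (median -0.11), and 33 were called in all without ileum control replicate 1. With all libraries 25.3% were called, fewer than the 35.9% over all genes. The direction of the calls depended on scaling, since without scaling factors 22 were higher in the colon and 6 in the ileum. Rpl6 read 625, 497 and 648 CPM in the ileum and 311, 331 and 274 CPM in the colon (-0.95 ± 0.16, adjusted p = 0.00095).

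Clock genes were called for 11 of 17 members, 8 higher in the colon. Ciart, a repressor of the clock, read 4.79, 5.94 and 4.16 CPM in the ileum and 18.9, 23.6 and 20.8 CPM in the colon (2.09 ± 0.20, adjusted p = 1.48e-05). Per1 read 16.3, 14.6 and 35.4 CPM in the ileum and 58.8, 66.8 and 49.2 CPM in the colon (1.39 ± 0.31, adjusted p = 0.0064). Dbp, a transcription factor with a strong daily rhythm, read 53.97, 72.3 and 47.9 CPM in the ileum and 116, 143 and 125 CPM in the colon (1.14 ± 0.17, adjusted p = 0.000397). Arntl, which encodes BMAL1, was higher in the ileum (-1.28 ± 0.36, adjusted p = 0.0215). The hour of collection is not stated for either tissue. Heat shock and immediate early genes, which respond to handling of tissue, were called for 41.2% of members, near the 35.9% over all genes tested. Of 17 members 4 were higher in the colon and 3 in the ileum, the latter Hsph1 (-1.21 ± 0.26, adjusted p = 0.00448), Fos (-1.09 ± 0.28, adjusted p = 0.0129) and Hspa8 (-0.64 ± 0.17, adjusted p = 0.0154). The colonic calls numbered 1 without ileum control replicate 1 or colon control replicate 2 or 3.

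Genes of neighbouring tissues were examined as well. Of 15 genes of pancreatic acinar cells 14 fell under the count filter, and the last, Cela1, an elastase, was colonic at 6.66, 5.44 and 4.67 CPM in the ileum and 37.02, 30.9 and 31.7 CPM in the colon (2.57 ± 0.21, adjusted p = 5.59e-06). Of 8 skeletal muscle genes 5 fell under the count filter, Myh1 and Myh4 among them. Of the 3 tested, Acta1 and Mylpf were higher in the ileum and Ckm was not called. Acta1, the actin of skeletal muscle, read 54.2, 28.2 and 8.63 CPM in the ileum and 4.35, 4.51 and 3.44 CPM in the colon (-2.88 ± 0.58, adjusted p = 0.00342). No adipocyte or erythrocyte gene was called with all libraries.

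The same comparison in the KO mice gave 6149 called genes of the 16558 (37.1%). Of the 5940 genes called in control mice, 5896 (99.3%) had the same sign in KO mice, whose libraries are separate, and 4859 were called there in the same direction. A single gene, the processed transcript Gm15850, was called in opposite directions, at -1.49 ± 0.57 in control mice (adjusted p = 0.0743) and 1.26 in KO mice (adjusted p = 0.0759), on at most 7 counts in a control library. Its control call was lost in 10 of the 16 other fits that gave it an adjusted p (up to 0.227), DESeq2, limma-voom and the removal of any control library but ileum control replicate 3 among them. The test of the difference between the tissue effects in KO and control mice called 0 genes with edgeR (smallest adjusted p = 1), with 169 genes (1.02%) at an unadjusted p under 0.05, while limma-voom called 0 and DESeq2 1. The gene that DESeq2 called was Aqp8, which had 6, 1722 and 0 counts in the ileal KO libraries, so that nearly all reads lay in ileum KO replicate 2 (edgeR unadjusted p = 0.0237). Car1 read 4.47, 2632 and 27.5 CPM in the same libraries, again with ileum KO replicate 2 far above the others. Gm15850 and this result of Aqp8 were looked up after the values were seen. In KO mice the mean of Slc6a19 was 1166 CPM in the ileum and 2.41 CPM in the colon, of Car1 888 CPM in the ileum and 17445 CPM in the colon, the ileal mean resting on replicate 2, and of Fabp6 6030.3 CPM in the ileum and 13.02 CPM in the colon.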

How the data were processed

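Mucosa of ileum and colon was taken from 3 mice per genotype and tissue, and RNA was sequenced from oligo-dT primed libraries. The authors deposited a single table of expected counts for 53715 gene rows and 92 spike-in rows, the latter without a count. Of its values 93.7% were whole to within 0.005. The submitters' processing notes name the aligner STAR and the mouse build mm10 and the study names UMI-tools, FeatureCounts and Gencode, but the program that estimated the counts and its strand setting are not given in the sources used here. A batch or collection time is not named in the labels. Symbols were taken from GENCODE M21 (GRCm38), which held 53620 of the gene identifiers, and 94 symbols stood on several identifiers.

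Expected counts were rounded to whole numbers, filtered with filterByExpr and scaled by TMM factors in edgeR 4.0.16 (R 4.3.3). CPM values are counts scaled to a library of 1000000. A quasi-likelihood model with the 4 groups of tissue and genotype was fitted over all 12 libraries, so that KO libraries entered the estimate of the spread, and colon minus ileum was tested in control mice. P-values were adjusted over the 16558 genes tested by the Benjamini-Hochberg method, and an adjusted p under 0.1 was called. With 3 libraries against 3 they rest on the spread between libraries of a group. In that spread, differences between mice and differences in dissection cannot be told apart. Where a tissue held no count, a bound was computed against 3 counts per library, which covers counting error only. The depths given with the results set the lowest level that could be compared.

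Named were the label markers, then in each direction the 12 genes with the largest fold change and the 12 with the largest CPM difference among called genes whose libraries did not overlap, then in each gene list the called members in order of fold change and those that define the list or the study, and paralogs of these. Some genes that this rule names are not reported here. Members, lists and tests were chosen with earlier results of these data known. Alpi, Gm15850, the runs of neighbouring genes and the promoters shown were chosen after the values were seen. Promoter windows came from RefSeq (GRCm38.p6), where motifs were searched as exact letters on both strands. Shared 50-base words were counted in GENCODE M21 transcripts.

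The fits were tested on simulated counts in which 200 genes differed 2-fold or 4-fold between the tissues and all others were level. Their spread was that estimated by edgeR, which may favour edgeR over the other tools. The share of changed genes was far smaller than the 35.9% called here. The rates that follow depend on that share and may not hold for the reported calls. With edgeR 30% of the 2-fold and 76% of the 4-fold changes were recovered, and 3.64% of the calls were false. For DESeq2 these values were 50%, 87% and 29%, and for limma-voom 32%, 78% and 3.51%. DESeq2 1.42.0, limma-voom 3.58.1, other scalings, filters, thresholds and sets of libraries served as alternatives. Plots were made in Python 3.11.15 (matplotlib 3.10.9).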

Additional observations from a re-analysis of the deposited data

How the results depend on the processing

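Of the 5940 genes called between colon and ileum, 3443 were called in the same direction in each of 18 other fits that gave them an adjusted p, and none changed sign in any of them. The number called was 2671 at an adjusted p under 0.01 and 3263 when a 2-fold change was also required. With the other tools, scalings, filters, unrounded counts, or the 6 control libraries alone, it lay between 4356 and 6258, and leaving out one control library gave between 4655 (colon control replicate 2) and 6146 (ileum control replicate 1). Without both ileal libraries of few muscle transcripts it was 7092. Without ileum KO replicate 2, an alternative chosen after seeing the data because that library held Aqp8 and Car1 reads, it was 5718, and the adjusted p of Aqp8 and Car1 went from 0.0207 to 0.00146 and from 0.0142 to 0.00132. Scaling moved the balance: 45.3% of calls were higher in the colon with TMM and 45.9% with RLE factors, but 55.2% with upper-quartile factors and 66.4% by library size only, where the median of all genes shifted by 0.1 and 0.223. The difference between the tissue effects of KO and control mice was called for 0 genes in all other fits, leaving out any control library included, and for 1 with DESeq2. Acer2, not called with all libraries, ranged from -0.10 without ileum control replicate 1 (adjusted p = 0.798) to 0.37 without replicate 3.

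Replicate numbers of ileum and colon did not mark the same mouse in the labels. Deviations of same-numbered libraries from their group means correlated at -0.053, 0.165 and -0.08, and those of differently numbered ones at -0.183 to 0.161. With 3 libraries per group these values can neither show nor exclude pairing. The numbers were not taken as pairs, since no source states that they are. With the replicate block 5333 genes were called, 5261 of them among the 5940 in the same direction.

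With 3 mice per tissue, an adjusted p over 0.1 does not show that a gene was level between the tissues. An exact permutation test of 3 against 3 libraries does not fall below 0.1. Ranks by fold change among genes without a count in one tissue depend on the prior count. Tissue, dissection and hour of collection cannot be told apart, since neither source states how they were balanced, and the mix of cells in each mucosa was not measured other than by marker genes.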
